A study of Solanum lycopersicum with 6 samples.

Results

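The ACC synthase genes of tomato (*Solanum lycopersicum*) examined here are *ACS2* (Solyc01g095080.2), *ACS4* (Solyc05g050010.2), *ACS1A* (Solyc08g081550.2) and *ACS6* (Solyc08g008100.2). They were chosen by identifier, as 4 of the 23709 genes listed in at least 1 library, and every library listed all 4. The samples were pericarp, the flesh of the fruit, taken 38 days post anthesis. The first group was 3 libraries from fruit with the genotype SlDof1 RNAi, in which a gene of the Dof family of zinc-finger transcription factors is targeted by double-stranded RNA, and the second was 3 libraries from wild-type fruit. The titles of all 3 RNAi libraries carry the name SlDof-8. The labels give neither the cultivar, the promoter that drives the RNAi construct, nor whether replicates came from different plants. The p-values therefore speak only of the spread among these 6 libraries, which may be technical.

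ACC synthase converts S-adenosylmethionine into ACC (1-aminocyclopropane-1-carboxylic acid), which ACC oxidase turns into ethylene, the hormone that drives ripening of tomato fruit. The synthases are encoded by a gene family whose members are used at different stages. *ACS1A* and *ACS6* are the genes of system 1, the low ethylene production of immature fruit, in which ethylene represses its own synthesis. *ACS2* and *ACS4* are the genes of system 2, the burst at ripening, in which ethylene stimulates its own synthesis, and the MADS-box factor RIN binds the promoters of both.

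Library totals were 9608643 to 10002358 expected counts. RNAi library 3 and wild-type library 1 stood apart. On the second principal component of log2 CPM (counts scaled to library size), which held 30.4% of the variance, they lay at 32.2 and 32.6, against -18.3 to -13.7 for the others. No label gives an identifier for SlDof1, and its silencing was not checked. Of 4 genes known from ripening fruit, *E8*, *PSY1* and *PG2a* were abundant in both groups and called lower in RNAi fruit, whereas *EXP1* was low in both. Of all 16737 genes tested, 5.8% were called lower (edgeR adjusted p below 0.05). *PG2a* had 137 to 215 FPKM (fragments per unit of transcript length and of library size) in RNAi libraries and 1042 to 1646 FPKM in wild-type libraries. *EXP1* had 3.58 to 4.38 FPKM in RNAi libraries and 2.04 to 3.53 FPKM in wild-type libraries, and did not pass (edgeR adjusted p = 0.258). Summed, the 4 genes gave 4287 to 4491 FPKM in the RNAi libraries and 6864 to 7883 FPKM in the wild-type libraries, most of it from *E8*. Of 3 markers of green tissue or epidermis, *RBCS2* and *CER6* were present and *CD1* was at or near 0 (at most 0.1 FPKM). Their summed level was 613 to 667 FPKM in the RNAi libraries, against 352 to 384 FPKM in the wild-type libraries, most of it from *RBCS2*. *RBCS2* was called higher in RNAi fruit (edgeR adjusted p = 0.00134), where 6.54% of all genes tested were. *CER6* did not pass (edgeR adjusted p = 0.052). The part of these markers in the results below was not tested.

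Both system 2 genes were lower in SlDof1 RNAi fruit, with a larger fitted fall for *ACS4* than for *ACS2*. *ACS4* lay at 20.6, 21.2 and 23.6 FPKM in RNAi libraries 1 to 3, against 105, 73.35 and 77.6 FPKM in wild-type libraries 1 to 3. The highest RNAi library was thus far below the lowest wild-type library, and the RNAi libraries lay close together. The mean was 21.8 ± 1.56 FPKM in RNAi fruit and 85.2 ± 17.0 FPKM in wild-type fruit (SD, n = 3 each). The fitted fall was 4.06-fold, or a log2 fold change of -2.02 ± 0.14 SE (adjusted p = 0.00013 by edgeR's quasi-likelihood test, Benjamini-Hochberg over every gene tested). *ACS4* ranked 56th by size of fall among the 971 genes called lower. In bulk tissue, fewer cells that express a gene and less RNA per cell cannot be told apart.

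*ACS2*, the most abundant synthase gene in every library, had 260.3, 263 and 342 FPKM in RNAi libraries 1 to 3 and 586, 436 and 439.7 FPKM in wild-type libraries 1 to 3. Here too the groups did not overlap, although RNAi library 3 came closer to the wild type than the other RNAi libraries. The fitted fall was 1.76-fold (-0.81 ± 0.15 SE as log2, edgeR adjusted p = 0.00946) and ranked 373rd among the 971. Without RNAi library 1 or RNAi library 2 the difference of *ACS2* no longer passed (log2 fold changes -0.74 and -0.76, edgeR adjusted p = 0.051 and 0.053), whereas *ACS4* passed whichever library was left out (edgeR adjusted p at most 0.00185). Over all 16737 genes tested, 5.8% were called lower and 31% had groups that did not overlap.

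**Figure D1:**
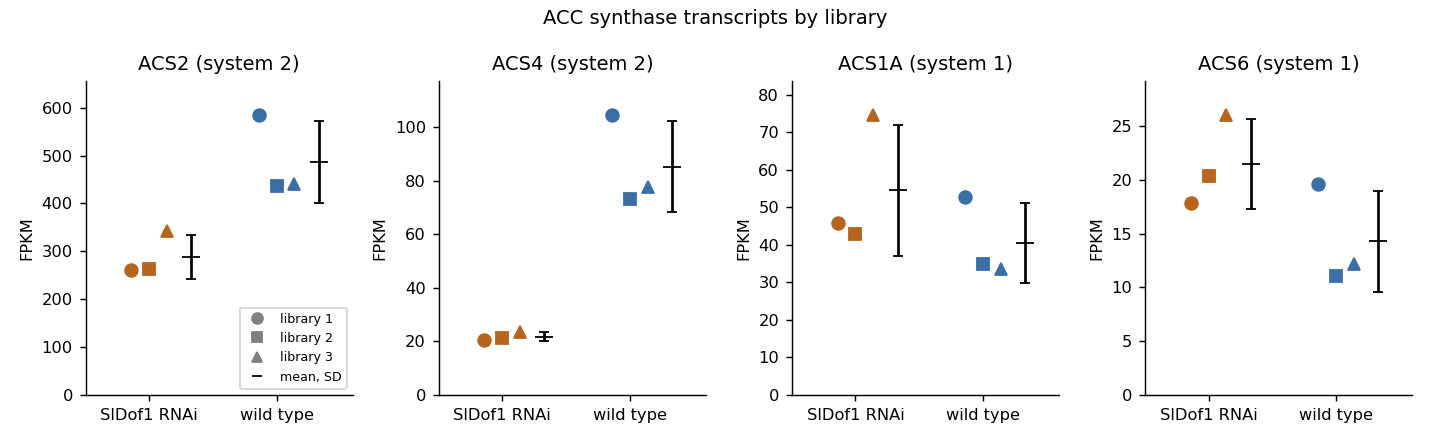
FPKM of the 4 ACC synthase genes in each library, with SlDof1 RNAi on the left and wild type on the right of each panel; symbols mark the library number and bars the mean and SD (n = 3). *ACS4* and *ACS2* show no overlap of the groups, *ACS1A* and *ACS6* do, and in every panel RNAi library 3 and wild-type library 1 are the highest of their group.

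Neither system 1 gene was called lower, and the fitted changes of both lay above 0. *ACS6* had 17.9, 20.4 and 26.1 FPKM in RNAi libraries 1 to 3, against 19.7, 11.1 and 12.1 FPKM in wild-type libraries 1 to 3. Wild-type library 1 lay inside the range of the RNAi libraries, and the other wild-type libraries lay below it. The log2 fold change was 0.53 ± 0.22 SE, with a 95% interval of 0.02 to 1.04, and did not pass after adjustment (edgeR unadjusted p = 0.044, adjusted p = 0.183). *ACS1A* had 45.9, 42.9 and 74.7 FPKM in RNAi libraries 1 to 3 and 52.7, 35.0 and 33.6 FPKM in wild-type libraries 1 to 3, again with wild-type library 1 inside the range of the RNAi libraries. Its log2 fold change was 0.37 ± 0.24 SE (95% interval -0.17 to 0.91, edgeR adjusted p = 0.382). Single libraries moved both values. Without wild-type library 1, the log2 fold change of *ACS6* was 0.82, which passed (edgeR adjusted p = 0.0138), and that of *ACS1A* 0.60, which did not (adjusted p = 0.109 by edgeR). Without RNAi library 3, that of *ACS1A* was 0.09 and that of *ACS6* 0.38 (edgeR adjusted p = 0.805 and 0.335). The lowest value of *ACS6* was 0.37, without wild-type library 2 (edgeR adjusted p = 0.443).

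*ACS1A* has a close neighbour. In RefSeq (assembly SLM_r2.1) *ACS1B*, another ACC synthase gene, lies next to it with 0 genes between them. The counts of *ACS2* and *ACS4* were whole numbers in 6 of 6 libraries, within 0.005, those of *ACS6* in 2 and those of *ACS1A* in 0. Fractions arise where reads that match several genes are shared out among them, so the levels of the system 1 genes may be less certain than those of the system 2 genes. Fractions do not tell how many reads were shared. *ACS1B* itself was at 8.66, 6.25 and 9.71 FPKM in the RNAi libraries and at 7.16, 5.71 and 5.03 FPKM in the wild-type libraries. Counted as a single gene, *ACS1A* and *ACS1B* gave a log2 fold change of 0.38 ± 0.23 SE (edgeR adjusted p = 0.354), close to that of *ACS1A* alone.

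The library pair that stands apart moved with all 4 genes. RNAi library 3 was the highest RNAi library and wild-type library 1 the highest wild-type library for 4 of the 4, a pattern seen in 29.4% of all genes tested. Within RNAi fruit, library 3 exceeded the mean of libraries 1 and 2 by a factor of 1.31 for *ACS2*, 1.13 for *ACS4*, 1.68 for *ACS1A* and 1.36 for *ACS6*. Within wild-type fruit, library 1 exceeded the mean of libraries 2 and 3 by 1.34 for *ACS2*, 1.39 for *ACS4*, 1.54 for *ACS1A* and 1.69 for *ACS6*. What sets these libraries apart is not given in the labels, and its part in the results was not tested.

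Compared inside each kind of library, the same split between the systems appeared. RNAi library 3 over wild-type library 1 gave FPKM ratios of 0.584 for *ACS2*, 0.225 for *ACS4*, 1.42 for *ACS1A* and 1.33 for *ACS6*. The mean of RNAi libraries 1 and 2 over that of wild-type libraries 2 and 3 gave 0.598 for *ACS2*, 0.277 for *ACS4*, 1.29 for *ACS1A* and 1.65 for *ACS6*. In the 4 libraries without the pair, *ACS4* and *ACS2* were again called lower (log2 fold changes -1.90 and -0.79, edgeR adjusted p = 4.63e-09 and 6.93e-07), where 10.5% of genes tested were called lower. In the same fit both system 1 genes were called higher, *ACS6* with a log2 fold change of 0.68 ± 0.11 SE (edgeR adjusted p = 0.000707) and *ACS1A* with 0.32 ± 0.08 SE (edgeR adjusted p = 0.00902), where 11.4% of genes tested were called higher. With all 6 libraries and a term for the pair, the calls were the same for *ACS6* (0.54 ± 0.09 SE, edgeR adjusted p = 0.000171) and *ACS1A* (0.36 ± 0.06 SE, edgeR adjusted p = 0.000121), where 15.9% were called higher, and *ACS4* and *ACS2* were called lower (-2.01 and -0.81), where 16.3% were. Both fits use a split found in these same libraries, which lowers the spread by selection.

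**Figure D2:**
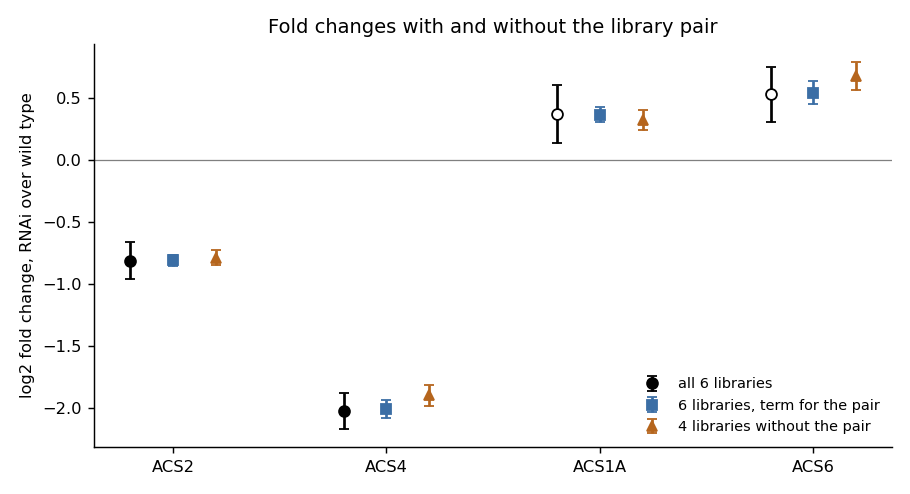
Log2 fold change, SlDof1 RNAi over wild type, with its SE for each ACC synthase gene, fitted in edgeR on all 6 libraries, with a term for wild-type library 1 and RNAi library 3, and on the 4 libraries without them; filled symbols have an adjusted p below 0.05. The estimates stay near -2 for *ACS4* and between 0.3 and 0.7 for the system 1 genes. For every gene the error bars are widest over all 6 libraries. The pair was found in these same libraries, which lowers the spread of the other fits by selection.

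The family as a whole had less transcript in RNAi fruit. Summed over the 4 genes the level was 345, 347 and 466 FPKM in RNAi libraries 1 to 3 and 763, 555 and 563 FPKM in wild-type libraries 1 to 3, with no overlap. The mean log2 sum was lower by 1.62-fold in RNAi fruit (exact permutation test, two-sided, p = 0.1, the smallest p that 3 libraries against 3 allow). The sum of the system 2 genes was 281 to 365 FPKM in RNAi libraries, against 509 to 690.3 FPKM in wild-type libraries. The sum of the system 1 genes was 63.3 to 101 FPKM in RNAi libraries, against 45.8 to 72.4 FPKM in wild-type libraries.

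Shares within a library cancel what a library's genes have in common, and for each of the 4 genes they did not overlap between the groups. *ACS4* made up 5.98%, 6.10% and 5.06% of the family's FPKM in RNAi libraries 1 to 3 and 13.7%, 13.2% and 13.8% in wild-type libraries 1 to 3. *ACS1A* made up 13.3%, 12.3% and 16.0% in the RNAi libraries and 6.91%, 6.31% and 5.97% in the wild-type libraries. *ACS6* had the smallest share in wild-type fruit and one like that of *ACS4* in RNAi fruit, with 5.19% to 5.87% in the RNAi libraries and 1.99% to 2.58% in the wild-type libraries. *ACS2* stayed the main gene, with 73.3% to 75.7% in the RNAi libraries and 76.8% to 78.5% in the wild-type libraries. Each of the 4 shares gave the smallest possible p (exact permutation test, two-sided, p = 0.1, and 0.1 adjusted over the 4 shares). By FPKM of single genes, 31% of all genes tested had groups that did not overlap. How often shares within other gene families separate the groups was not computed. The shares add up to a fixed total and are therefore not independent of each other. Because *ACS2*, which holds most of the total, was lower in RNAi fruit, unchanged levels of *ACS1A* and *ACS6* would also give larger shares. The FPKM of each of these system 1 genes overlapped between the groups.

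**Figure D3:**
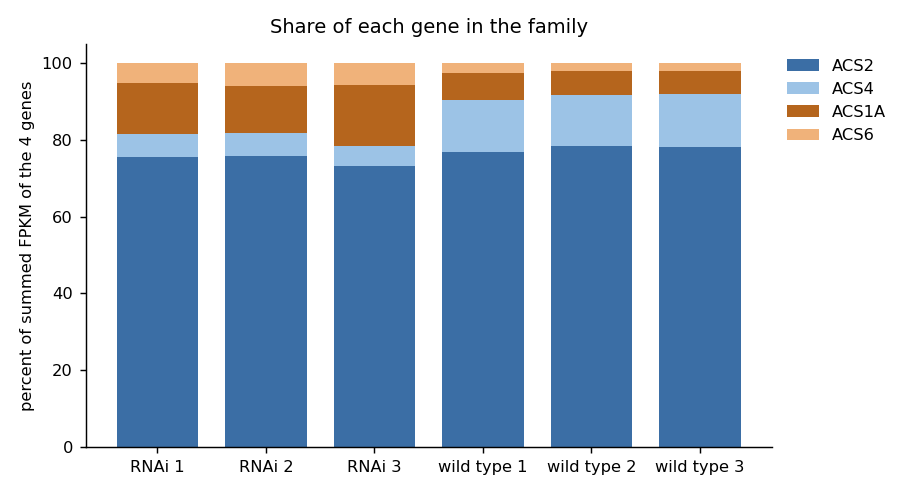
Share of each ACC synthase gene in the summed FPKM of the 4 genes, by library, with the RNAi libraries on the left. *ACS4* narrows to 5.06% to 6.10% in RNAi fruit, against 13.2% to 13.8% in wild-type fruit, while *ACS1A* and *ACS6* widen.

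The order of the genes by level therefore differed between the groups. In RNAi fruit the order was *ACS2*, *ACS1A*, then *ACS4* and *ACS6*, whose ranges of 20.6 to 23.6 and 17.9 to 26.1 FPKM overlapped. In wild-type fruit it was *ACS2*, *ACS4*, *ACS1A* and *ACS6*, with no overlap between neighbours. *ACS4* was at 0.449, 0.495 and 0.315 times the FPKM of *ACS1A* in RNAi libraries 1 to 3, against 1.99, 2.10 and 2.31 times in wild-type libraries 1 to 3.

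The ratio of the systems was lower in every RNAi library than in any wild-type library. The FPKM of *ACS2* and *ACS4* together exceeded that of *ACS1A* and *ACS6* by 4.40, 4.49 and 3.63 times in RNAi libraries 1 to 3 and by 9.54, 11.05 and 11.3 times in wild-type libraries 1 to 3. The mean log2 ratio was 2.05 ± 0.17 in RNAi fruit and 3.41 ± 0.13 in wild-type fruit (SD, n = 3 each), a difference of -1.35 or 2.55-fold (exact permutation test, two-sided, p = 0.1). The pair that stands apart had the lowest ratio of each group, 3.63 in RNAi library 3 and 9.54 in wild-type library 1.

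Within system 2, *ACS4* was lower relative to *ACS2* in RNAi fruit. The FPKM of *ACS4* was 7.92%, 8.06% and 6.90% of that of *ACS2* in RNAi libraries 1 to 3 and 17.9%, 16.8% and 17.6% in wild-type libraries 1 to 3. The mean log2 ratio of *ACS4* to *ACS2* was -3.72 ± 0.12 in RNAi fruit and -2.52 ± 0.05 in wild-type fruit (SD, n = 3 each), a difference of -1.20 or 2.29-fold (exact permutation test, two-sided, p = 0.1). Taken as counts, *ACS4* had 336 of 4988 *ACS2* and *ACS4* counts in RNAi library 1 (6.74%, 95% Wilson interval 6.07% to 7.47%) and 1196 of 8984 in wild-type library 2 (13.3%, 12.6% to 14.03%), so counting error was small beside the difference. By contrast *ACS1A* kept to 2.57, 2.10 and 2.87 times the FPKM of *ACS6* in the RNAi libraries and 2.68, 3.16 and 2.77 times in the wild-type libraries, and these ranges overlapped.

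**Figure D4:**
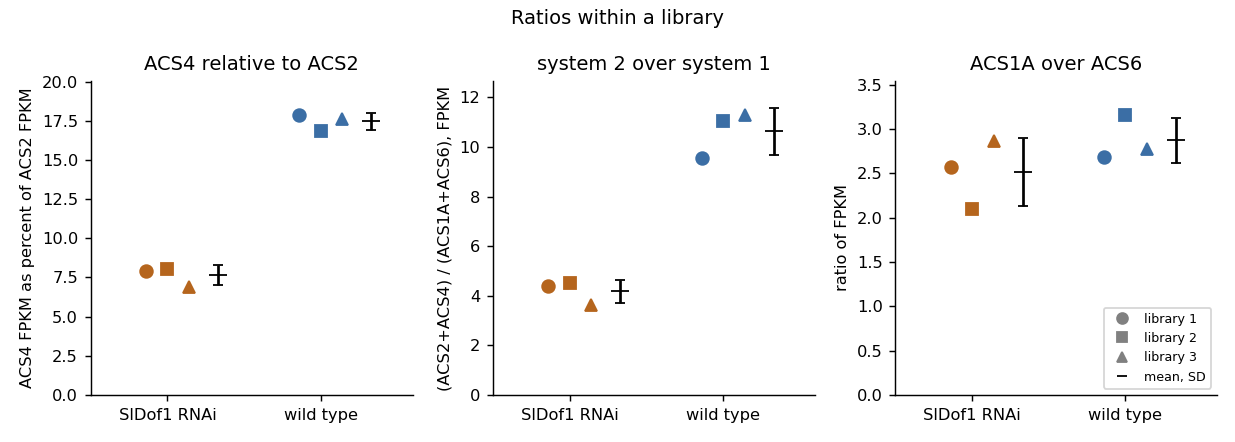
Ratios of FPKM within each library for *ACS4* as a percentage of *ACS2*, for the system 2 genes over the system 1 genes, and for *ACS1A* over *ACS6*; RNAi is on the left, symbols mark the library number and bars the mean and SD (n = 3). The first and second ratios separate the groups and the third does not.

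The rest of the pathway changed in both directions. Of 14 other genes of ethylene synthesis (4 ACC synthases, 6 ACC oxidases and 4 S-adenosylmethionine synthetases), 12 were tested, 3 rose, 2 fell and 7 did not pass (edgeR adjusted p below 0.05; 6.54% of all genes tested were called higher and 5.8% lower). Their median log2 fold change was 0.16, against -0.01 over all genes tested. Among the minor synthases, *ACS8* had 0.37, 0 and 0.19 FPKM in RNAi libraries 1 to 3, against 2.7, 2.24 and 2.26 FPKM in wild-type libraries 1 to 3, from 6, 0 and 3 counts against 43, 36 and 37 counts (edgeR adjusted p = 0.00252). *ACS3* went the other way, with 1.63, 1.68 and 2.07 FPKM in the RNAi libraries and 0.64, 0.78 and 0.56 FPKM in the wild-type libraries (2.59-fold higher, edgeR adjusted p = 0.0105). Both are minor genes in this tissue. The 4 main synthase genes held 97.0% to 97.8% of the summed FPKM of 8 synthase genes in RNAi fruit and 98.45% to 98.6% in wild-type fruit.

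The 6 ACC oxidase genes summed to 10200 to 12220 FPKM in RNAi libraries and to 11640 to 14420 FPKM in wild-type libraries, far above the synthases. *ACO5* fell, with 112, 124 and 121 FPKM in RNAi libraries 1 to 3 and 369, 369.6 and 338 FPKM in wild-type libraries 1 to 3 (3.13-fold lower, edgeR adjusted p = 3.28e-05). *ACO4* and *ACO6* rose, *ACO4* with 42.2 to 51.7 FPKM against 25.8 to 34.9 FPKM in wild-type libraries (1.55-fold, edgeR adjusted p = 0.0165), and *ACO6* with 627 to 714 FPKM against 406 to 498 FPKM (1.42-fold, edgeR adjusted p = 0.0143). *ACO1*, the main oxidase gene, had 9094 to 10958 FPKM in RNAi libraries and 10521 to 13127 FPKM in wild-type libraries, which overlap (log2 fold change -0.27 ± 0.12 SE, adjusted p = 0.206 by edgeR). Counts of *ACO1* held fractions in every library. The 4 synthase genes amounted to 3.15% to 3.67% of the summed FPKM of synthases and oxidases in RNAi fruit and to 4.53% to 5.02% in wild-type fruit. Without wild-type library 2 or 3 *ACO4* and *ACO6* did not pass, nor did *ACO4* without RNAi library 1 or *ACO6* without RNAi library 2 (edgeR adjusted p up to 0.0774), and *ACS3* did not without wild-type library 3 (adjusted p = 0.0519). The 4 S-adenosylmethionine synthetase genes, which supply the substrate, summed to 991, 992 and 622 FPKM in RNAi libraries 1 to 3 and to 506, 809 and 866 FPKM in wild-type libraries 1 to 3, so that here the pair that stands apart was the lowest of each group, opposite to the synthases.

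**Figure D5:**
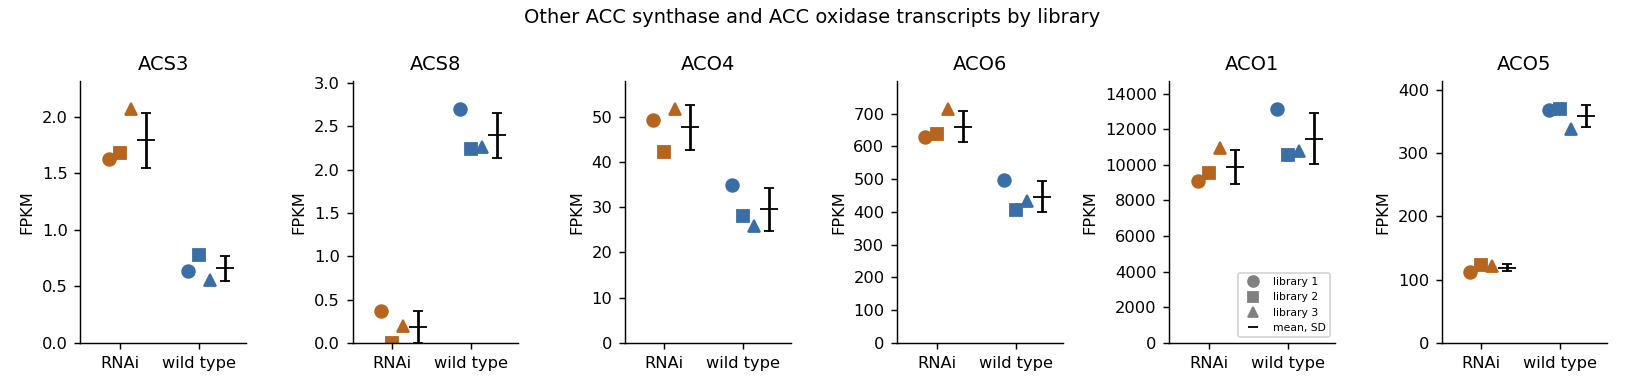
FPKM by library of the other ACC synthase genes *ACS3* and *ACS8* and of the ACC oxidase genes *ACO4*, *ACO6*, *ACO1* and *ACO5*, with SlDof1 RNAi on the left of each panel; symbols mark the library number and bars the mean and SD (n = 3). *ACS3*, *ACO4* and *ACO6* lie higher in RNAi fruit, *ACS8* and *ACO5* lower, and the groups of *ACO1* overlap.

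Of 7 transcription factors that act in ripening, 4 fell in RNAi fruit and 3 did not pass, with a median log2 fold change of -0.38 (edgeR). Over all genes tested 5.8% were called lower, and the median was -0.01. *RIN*, whose product binds the promoters of *ACS2* and *ACS4*, had 217.5, 217.1 and 295 FPKM in RNAi libraries 1 to 3, against 530.2, 350.5 and 341 FPKM in wild-type libraries 1 to 3 (log2 fold change -0.80 ± 0.19 SE, edgeR adjusted p = 0.0288). Counts of *RIN* held fractions in every library, like those of *ACS1A*, so its level may also be less certain. *NOR*, a NAC factor needed for ripening, fell 1.40-fold (edgeR adjusted p = 0.0154), and *AP2a*, a repressor of ethylene synthesis in tomato fruit, did not pass (-0.25 ± 0.10 SE, edgeR adjusted p = 0.158). Without RNAi library 1 or RNAi library 2 neither *RIN* nor *NOR* passed (edgeR adjusted p up to 0.118 and 0.0813), and *RIN* did not with limma on log2(FPKM + 1) or log2(FPKM + 0.1) (adjusted p = 0.06 and 0.0611), where 3 of the 7 factors fell.

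Of the lists examined here, *RIN* was the gene whose profile lay nearest to that of *ACS2*. Likeness was measured as the root-mean-square difference of log2 CPM, each gene centred on its own mean over the 6 libraries, and was 0.0748 for *RIN*, followed by *PSY1* (0.175), *NOR* (0.182), *FUL2* (0.201) and *E8* (0.243). The FPKM ratio of *ACS2* to *RIN* was 1.20, 1.21 and 1.16 in RNAi libraries 1 to 3 and 1.10, 1.24 and 1.29 in wild-type libraries 1 to 3. Among 12686 tested genes with a mean of at least 5 FPKM, 12 lay nearer to *ACS2* than *RIN* did, led by Solyc01g099040.2 (0.0283) and Solyc05g006830.2 (0.04). For *ACS4* the nearest listed gene was *ACO5* (0.236), with 18 genes nearer, led by Solyc08g066250.2 (0.106) and Solyc02g067440.2 (0.136). Of the listed genes, *PG2a* (0.513), *PSY1* (0.569), *ACS2* (0.601) and *RIN* (0.619) came next. Among the same 12686 genes, 239 lay nearer to *ACS4* than *RIN* did. Likeness was taken over the same 6 libraries as the fold changes, so it largely repeats them. The log2 fold changes were -0.81 for *ACS2*, -0.80 for *RIN* and -0.82 for Solyc01g099040.2. They were -2.02 for *ACS4* and -2.05 for Solyc08g066250.2. Whether any of these genes acts on another was not tested.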

How the data were processed

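RNA was sequenced from fruit pericarp, 3 libraries per genotype, with Illumina libraries from total RNA, per the labels' protocols. Each deposited file gives expected counts (estimated counts per gene, with fractions where reads are shared among genes) and FPKM values, per the file headers, and the transcript length. How reads were aligned and counted, with or without strand, and against which build is not given in the sources used here. Genes missing from a file were set to 0.

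Expected counts were rounded and filtered with filterByExpr (minimum count 10, minimum total 15). The 16737 genes left were scaled by TMM and compared with edgeR's quasi-likelihood test, group as the only term, with Benjamini-Hochberg adjustment over all of them and a threshold of 0.05. SE was computed as the size of the log2 fold change over the root of edgeR's F. Shares and ratios are of deposited FPKM, with 0.01 FPKM added to both sums of the ratio of systems, and were tested by exact permutation over libraries. Wilson intervals cover counting error only. Alternatives were DESeq2, DESeq2 size factors, no filter, limma on log2(FPKM + 1) and log2(FPKM + 0.1), the replicate number as a block, a term for the library pair or its removal, and leaving out each library.

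The members and lists were chosen with earlier results of these data known. Of 32 gene names, 31 were placed by a RefSeq gene of that name or synonym (assembly SLM_r2.1) on the chromosome of the identifier and in the same order along it. Named are the 4 members, called pathway genes and *ACO1*, *RIN*, *NOR* and *AP2a*, and the listed genes and identifiers nearest to *ACS2* and *ACS4*. *ACS1B* and the summed synthetase genes were added after their values were seen. Software was edgeR 4.0.16, DESeq2 1.42.0 and limma 3.58.1 in R 4.3.3, and SciPy 1.17.1 and matplotlib 3.10.9 in Python 3.11.15.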

Additional observations from a re-analysis of the deposited data

How the results depend on the processing

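Under the alternatives run, *ACS4* kept its call in 14 of 14 (log2 fold change -2.12 to -1.85), and the directions of the family sum, the 4 shares and both ratios held in every alternative (-1.43 to -1.25 for the ratio of systems and -1.24 to -1.11 for *ACS4* to *ACS2*). *ACS2* kept its call in 12 of 14, and without each library in turn its log2 fold change ranged between -0.94 and -0.66. *ACS1A* and *ACS6* did not pass in the main fit. Both passed with a term for the library pair (0.36 and 0.54) and in the 4 libraries without it (0.32 and 0.68). That pair was found in these same libraries, which lowers the spread by selection. Without each library in turn the log2 fold change ranged between 0.09 and 0.60 for *ACS1A* and between 0.37 and 0.82 for *ACS6*. The cause of these shifts was not tested. Over all genes, 1094 were called higher and 971 lower. With the replicate number as a block these were 496 and 381, with the term 2664 and 2720, in the 4 libraries 1922 and 1771, and without each library in turn 583 to 1126 higher and 481 to 912 lower. Of the pathway list, 6 rose and 4 fell with the term and 5 rose in the 4 libraries, and without each library in turn 0 to 3 rose and 2 fell. With the replicate block in edgeR 0 of the list rose, 3 at an unadjusted p under 0.05, where DESeq2 without a block called 3. Of the regulators, 7 fell with the term, 0 with the replicate block (4 at an unadjusted p under 0.05, and 4 by DESeq2 without a block), and 0 to 4 without each library in turn (edgeR; the 0 without RNAi library 1 or 2, with 4 and 5 at an unadjusted p under 0.05). Same-numbered libraries did not deviate together for numbers 1 and 3 (correlations across genes of -0.493 and -0.521), whereas those of number 2 did (0.279). Not every library was nearest to its own number, so the numbers were not treated as pairing. With the block, *ACS2* and *ACS4* passed (edgeR adjusted p = 0.0459 and 0.00192). Depth limits the minor synthases most, with 0 to 43 counts of *ACS8* in a library.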
